A study of Mus musculus with 11 samples.

Results

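The change in hippocampal transcripts with levetiracetam (LEV) 1 month after a photothrombotic infarct was read from 4 of the 11 libraries of the series, chosen by their labels. PT 1 m LEV is represented by 1 library for each side of the brain, infarcted and non-infarcted, and so is PT 1 m, the untreated group. The source of every library was the entire hippocampus of male C57BL/6N mice, for which the labels name no transgene. CAGE (cap analysis of gene expression) was the assay, in which only the starts of capped RNAs are read. Photothrombosis (PT) clots the vessels of the left parietal cortex by light (565 nm, 30 min, a circle of 3.5 mm) after the dye rose bengal (35 mg/kg), and both groups carried it. LEV was given at 5 mg/mL in the drinking water. The series text has 2 weeks of treatment that begin 1 month after PT, while the labels call the treated libraries PT 1 m LEV, so the exact interval between infarct and sampling is not given. PT 7 d LEV and PT 7 d, with 2 libraries each, serve as the comparison at 7 days. PT 2 m after LEV withdrawal (2 libraries) and the naive library, from mice without an infarct, are given as levels. The labels do not say how many animals a library held, whether the sides share animals, or which age (8 to 10 or 65 to 85 weeks) a library came from.

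LEV is an anti-seizure drug that binds SV2A, a glycoprotein of synaptic vesicles. Neurons that fire switch on immediate early genes such as Npas4 and Fos within minutes, and these drive effector genes that adjust synapses, among them Nptx2, Homer1 and Bdnf. Metallothioneins are small cysteine-rich proteins that bind zinc and copper, and their genes answer to metal through the factor MTF1 and to glucocorticoids and oxidative stress. Ribosomal protein genes share a pyrimidine-rich start that ties their translation to growth signals, and SR proteins, which bind exonic enhancers in pre-mRNA, control their own messages through unproductive splicing.

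Library totals were 15889269 and 22377376 reads in PT 1 m LEV (infarcted and non-infarcted side), against 13382623 and 13940220 in PT 1 m, and 13382623 to 22377376 over the series. Levels are in CPM, reads scaled to a common library total, and a count of 0 allows up to 3 reads, 0.134 to 0.224 CPM in these libraries (counting error alone). Differences are of log2(CPM + 1), which understates the change of low genes, and genes are called at an adjusted p under 0.05 by limma over 16057 genes. Each condition has 1 pair of libraries and side is a term of the fit, so p measures how unevenly the sides differ across conditions. It does not measure the spread between replicate libraries of a side, which the series lacks. LEV cannot be told apart from anything else that set the pair apart (animals, age, dissection or library preparation). Both PT 1 m LEV libraries lay above or below the 9 others for 26.6% of genes (1607 above, 2666 below), against 4.30% for PT 1 m. The same share was 30.0% for the PT 2 m pair, 4.59% for PT 7 d LEV and 4.78% for PT 7 d, so the PT 1 m LEV pair was one of the pairs that stood apart. Fewer cells of a type and less RNA per cell cannot be told apart in whole tissue.

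Hippocampal neuron markers were present in all 4 libraries, and choroid plexus was the tissue that varied most. Summed over its 16 genes, choroid plexus RNA was 2017 and 175 CPM in PT 1 m LEV (infarcted and non-infarcted side), against 123 and 1594 CPM in PT 1 m. It was thus high on opposite sides in the treated and untreated groups. Genes of pericytes, smooth muscle and meningeal fibroblasts summed to 2457 and 1423 CPM in PT 1 m LEV, against 1719.8 and 4311 CPM in PT 1 m. Nuclear and small structural RNAs, used as a sign of RNA quality, summed to 15916 and 16047 CPM in PT 1 m LEV, against 16847 and 17867 CPM in PT 1 m, with 16733 to 24224 CPM in the 7 other libraries. CAGE reads capped starts, and whether the reads given to such small RNA genes come from the small RNAs themselves was not tested. The part of these tissues and of RNA quality in the results below was not tested.

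The question was which genes differed between treated and untreated libraries over both sides. LEV at 1 m went with 2501 called genes of 16057 (15.6%), of which 1143 rose (7.12%) and 1358 fell (8.46%) by limma on the mean of both sides. With library sizes scaled by the trimmed mean of M values (TMM), 1625 rose and 908 fell, so the balance of directions depends on the scaling (45.7% of calls higher, against 64.2% with TMM), and the median of all genes was -0.04 in the fit. Most changes were modest. The median called change was 0.43 among genes that rose and -0.41 among those that fell, and 38 rose and 10 fell by a log2 of at least 1. The sign was shared by both sides for 71.6% of all genes. Across genes the change on the infarcted and the non-infarcted side gave Pearson's r = 0.43 and Spearman's rho = 0.54, as a description, since genes share their libraries. At 7 d these values were 52.6%, 0.06 and 0.08.

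**Figure D1:**
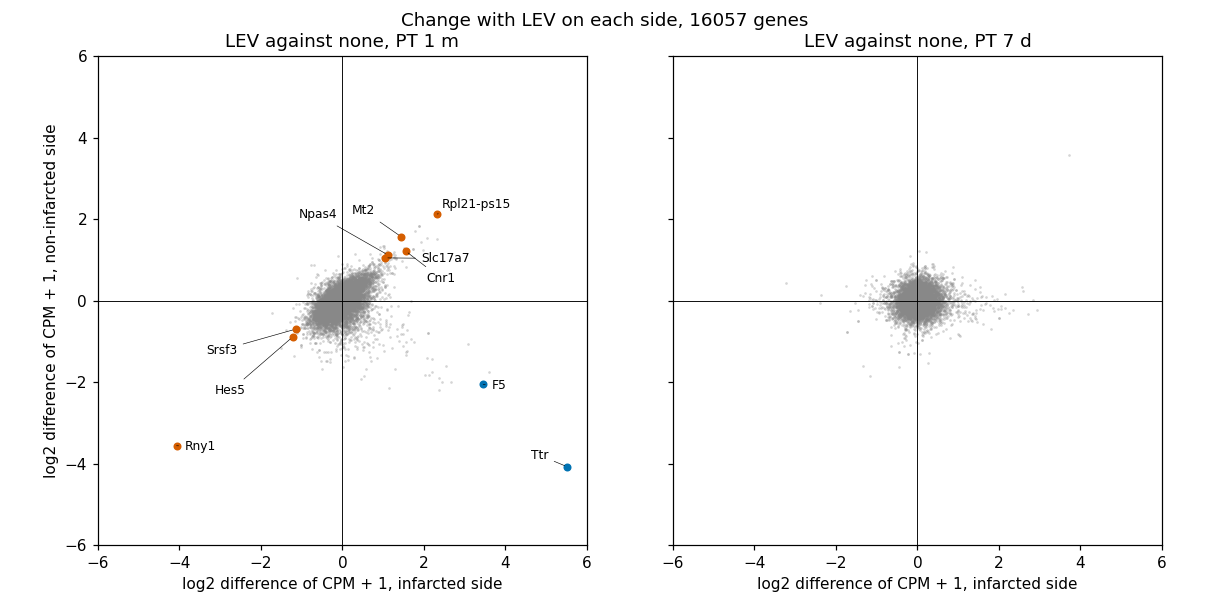
Change with LEV on the infarcted side (x axis) and the non-infarcted side (y axis), as differences of log2(CPM + 1), for 16057 genes at 1 m (left) and 7 d (right). At 1 m the cloud stretches along the line of equal change, with named genes in orange, while Ttr and F5 (blue) lie far into the quadrant of opposite signs. At 7 d it is round.

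The calls lean on the libraries unequally. Left out in turn, PT 1 m LEV infarcted reduced them to 376, PT 1 m LEV non-infarcted to 1144, PT 1 m infarcted to 1138 and PT 1 m non-infarcted to 1330, where the lone library is assumed to vary like those of the other conditions. The call held without each of the 4 libraries for 318 genes, 208 higher and 110 lower, and 64 of the 165 called genes that the naming rule picked were among those. Without PT 1 m LEV non-infarcted and PT 1 m infarcted, the libraries lowest in choroid plexus genes, 385 were called, 171 higher and 214 lower. That fit leaves 1 library per group, the infarcted side with LEV and the non-infarcted side without it. Only a side term shared with the other conditions parts side from LEV there. Calls lost in it may reflect fewer libraries, and the part of choroid plexus was not tested. For genes that are named as higher or lower and lose the call when 1 library is left out, the adjusted p without that library is given. A gene described as called without each library kept its call whichever 1 of the 4 was left out.

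**Figure D2:**
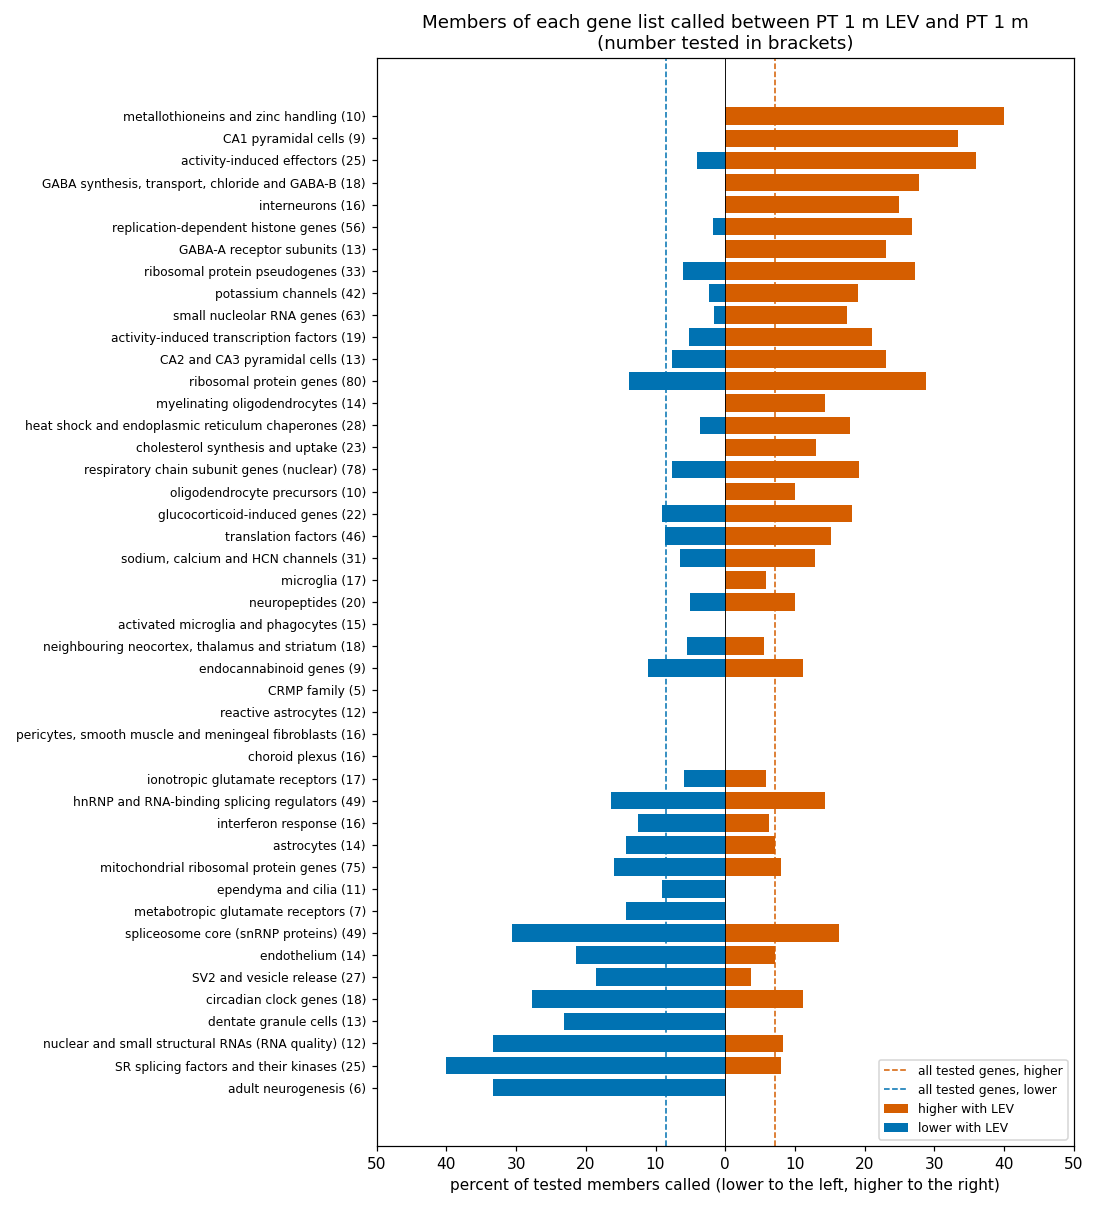
Share of the tested members of each gene list called higher (orange, right) and lower (blue, left) in PT 1 m LEV against PT 1 m. Dashed lines mark the shares over all genes, 7.12% higher and 8.46% lower, and lists are ordered by the excess of higher over lower calls, with metallothioneins at the top. Lists were chosen with earlier results of these data known, so the shares are descriptions and not tests.

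A log2 of at least 1 on both sides was reached by 33 genes higher with LEV (0.206% of those tested) and 6 lower (0.0374%), of which 29 and 6 were called. Slc17a7 (ENSMUSG00000070570.5, GRCm38 chromosome 7, 45163949 to 45176142), the vesicular glutamate transporter of hippocampal principal cells, had 1606 and 1603 CPM in PT 1 m LEV (infarcted and non-infarcted side), against 781 and 771 CPM in PT 1 m. The 9 other libraries of the series ranged from 498 to 936 CPM, so both treated libraries lay above all of them, as for 1607 of 16057 genes. Its log2 change was 1.05 (SE 0.12, limma adjusted p = 0.000558). Slc25a23, a calcium-regulated carrier of adenine nucleotides into mitochondria, had 373 and 355 CPM in PT 1 m LEV, against 182 and 170.4 CPM in PT 1 m. Its change was 1.04 (SE 0.08, limma adjusted p = 5.62e-05). For both genes the treated libraries were above every other library, the sides differed little, and each was called under each of the 17 alternatives.

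The cannabinoid receptor gene Cnr1 (ENSMUSG00000044288.6, GRCm38 chromosome 4, 33924593 to 33948831), which damps transmitter release and is strongest in cholecystokinin interneurons of the hippocampus, showed a larger change. It had 288 and 265 CPM in PT 1 m LEV, against 97.7 and 113 CPM in PT 1 m. The others were 98.9 and 116 CPM in PT 7 d LEV, 112 and 105 CPM in PT 7 d, 116 and 108 CPM after withdrawal and 69.3 CPM in naive. Both treated libraries at 1 m thus stood above all others, as for 1607 of 16057 genes. The log2 change of Cnr1 was 1.39 (SE 0.10, limma adjusted p = 5.03e-05). Of the 9 endocannabinoid genes, Cnr1 rose and Napepld, whose enzyme releases anandamide from its phospholipid precursor, fell. That is 11.1% each, against 7.12% higher and 8.46% lower over all genes. Napepld had 17.5 and 17.1 CPM in PT 1 m LEV, against 28.2 and 23.0 CPM in PT 1 m (log2 -0.53, SE 0.10, limma adjusted p = 0.0046). For Napepld adjusted p was 0.0753 without PT 1 m LEV infarcted and 0.0557 without PT 1 m infarcted. Genes with other roles rose about as far, with calls that also held under all 17 alternatives. Gtf2a1, a subunit of the general transcription factor TFIIA, had 116 and 99.8 CPM in PT 1 m LEV, against 47.8 and 46.8 CPM in PT 1 m (log2 1.17). Hs3st4, a heparan sulfate sulfotransferase of neurons, had 137 and 119 CPM in PT 1 m LEV, against 54.2 and 58.0 CPM in PT 1 m (log2 1.17). Crk, an adaptor of tyrosine kinase signalling, had 142 and 131 CPM in PT 1 m LEV, against 67.3 and 64.5 CPM in PT 1 m (log2 1.04).

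**Figure D3:**
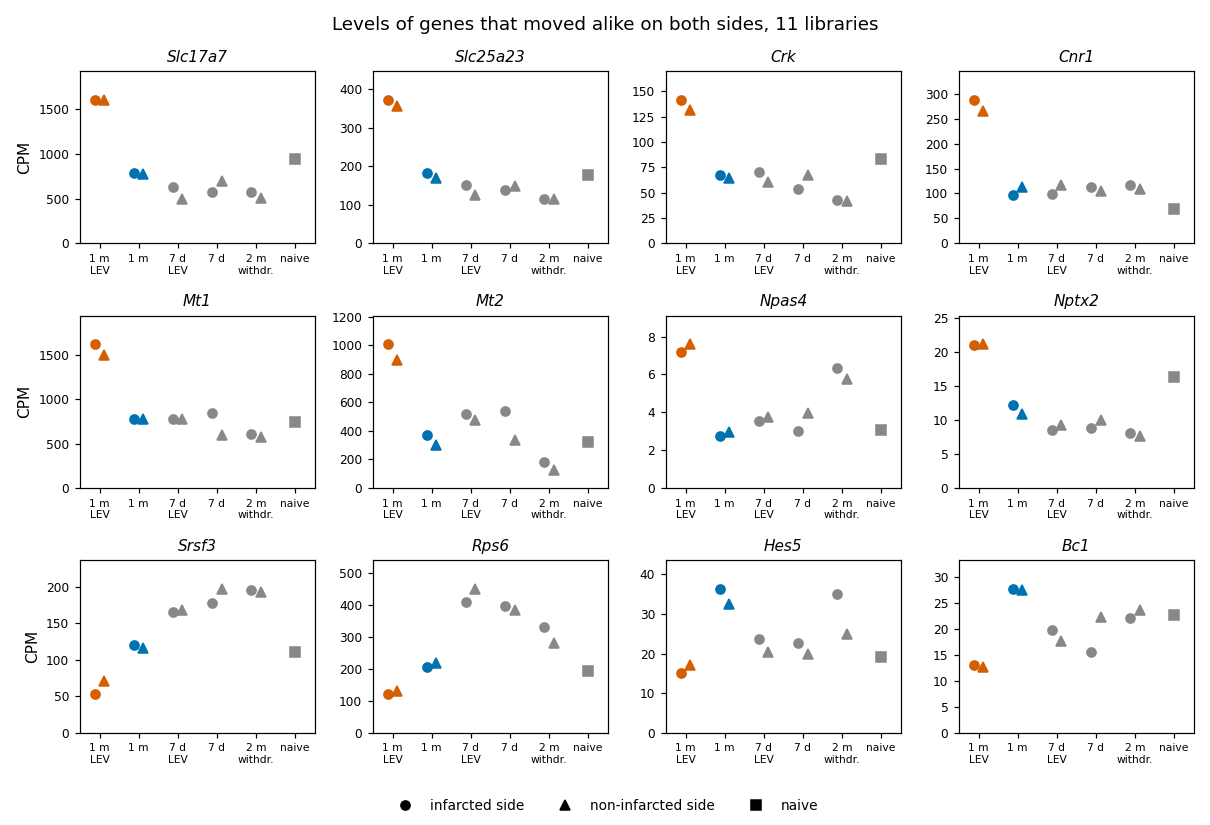
Levels (CPM, linear axes from 0) of 12 genes in all 11 libraries; circles are infarcted sides, triangles non-infarcted sides and squares naive, with PT 1 m LEV in orange and PT 1 m in blue. In the upper 2 rows both orange points lie above both blue points, as for Slc17a7 (1606 and 1603 against 781 and 771 CPM), and in the bottom row they lie below.

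The metallothioneins rose together. Mt2 (ENSMUSG00000031762.7, chromosome 8, 94172664 to 94173568) had 1007 and 897 CPM in PT 1 m LEV (infarcted and non-infarcted side), against 371 and 300.2 CPM in PT 1 m, a log2 change of 1.51 (SE 0.12, limma adjusted p = 5.62e-05). Mt1 (ENSMUSG00000031765.8, chromosome 8, 94179082 to 94180327) had 1618 and 1502 CPM in PT 1 m LEV, against 782 and 777 CPM in PT 1 m, a change of 1.00 (SE 0.11, limma adjusted p = 0.000568). Mt3, the form made mainly in the brain and rich in zinc-laden neurons, had 2783 and 2672 CPM in PT 1 m LEV, against 1754 and 1682 CPM in PT 1 m, a smaller change of 0.67 (SE 0.11, limma adjusted p = 0.00229). Sides were close in both groups, and for each of the 3 genes both treated libraries lay above the 9 others, whose highest values were 539 CPM for Mt2, 842 CPM for Mt1 and 1754 CPM for Mt3. The same held for 1607 of all 16057 genes. After LEV withdrawal Mt2 was at 185 and 128 CPM, below the other conditions. Of the 10 metallothionein and zinc genes tested, 4 rose (40.0%, against 7.12% of all genes) and 0 fell. The list was chosen with earlier results of these data known, so its share is a description and not a test. The fourth is a zinc importer. Slc39a1 had 22.7 and 23.9 CPM in PT 1 m LEV, against 18.3 and 16.0 CPM in PT 1 m (log2 0.43, SE 0.11, limma adjusted p = 0.0238). For Slc39a1 adjusted p was 0.219 without PT 1 m LEV non-infarcted, 0.0983 without PT 1 m infarcted and 0.0973 without PT 1 m non-infarcted. Slc30a3, which loads zinc into glutamatergic vesicles, had 64.0 and 59.9 CPM in PT 1 m LEV, against 67.5 and 61.3 CPM in PT 1 m and was not called (adjusted p = 0.723 by limma). Mt1, Mt2 and Mt3 kept their calls without each of the 4 libraries. Without PT 1 m LEV non-infarcted and PT 1 m infarcted together, the libraries lowest in choroid plexus genes, the limma call ended at adjusted p = 0.0529 for Mt1 and 0.106 for Mt3 and held for Mt2.

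The start regions of these genes, as RefSeq places them, were searched for metal response elements, the sites through which MTF1 acts. Bases outside the windows described next were not searched. The core was searched as TGCACNC or TGCGCNC on both strands (N is any base), in RefSeq windows of 300 bases in GRCm38.p6 that run from 250 bases before to 50 after the start, and matches are in capitals. Of 32851 such windows over the genome, 25.7% hold at least 1 match and 1.97% hold 3 or more. Among windows of the genes tested here 37.1% hold 1 or more. Mt1 holds 3, Mt2 holds 4 and Mt3 holds 1.
Mt1, plus strand, chr8:94178839-94179138: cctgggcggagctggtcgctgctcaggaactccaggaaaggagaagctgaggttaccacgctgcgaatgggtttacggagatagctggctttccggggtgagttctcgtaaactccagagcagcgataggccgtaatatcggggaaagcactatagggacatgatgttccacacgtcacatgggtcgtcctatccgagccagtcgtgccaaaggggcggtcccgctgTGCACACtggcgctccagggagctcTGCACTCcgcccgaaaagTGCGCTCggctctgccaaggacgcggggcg
Mt2, plus strand, chr8:94172368-94172667: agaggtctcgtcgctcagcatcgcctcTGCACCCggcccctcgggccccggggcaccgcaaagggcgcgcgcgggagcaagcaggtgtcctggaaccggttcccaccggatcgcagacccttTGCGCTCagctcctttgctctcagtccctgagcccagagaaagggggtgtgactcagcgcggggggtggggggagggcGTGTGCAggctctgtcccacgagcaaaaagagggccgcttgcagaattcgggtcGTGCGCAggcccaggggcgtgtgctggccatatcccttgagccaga
Mt3, plus strand, chr8:94152357-94152656: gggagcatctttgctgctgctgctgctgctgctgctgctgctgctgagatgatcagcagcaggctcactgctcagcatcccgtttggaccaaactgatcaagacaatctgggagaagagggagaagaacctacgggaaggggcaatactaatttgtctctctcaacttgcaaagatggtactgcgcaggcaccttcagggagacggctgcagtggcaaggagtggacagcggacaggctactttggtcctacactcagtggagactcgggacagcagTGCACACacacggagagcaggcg
A match is a string of letters and not a measured site of binding.

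Among activity-induced genes, 4 of 19 transcription factors rose (Fos, Fosb, Npas4 and Nr4a1) and 1 fell (Per1). That is 21.1% and 5.26%, against 7.12% and 8.46% of all genes. Summed over the list, these factors were at 680 and 726 CPM in PT 1 m LEV (infarcted and non-infarcted side), against 707 and 667 CPM in PT 1 m. The sum was thus lower with LEV on the infarcted side and higher on the non-infarcted side. Npas4 (ENSMUSG00000045903.9, chromosome 19, 4984355 to 4990316), a factor specific to neurons and induced by calcium entry, had 7.17 and 7.60 CPM in PT 1 m LEV (infarcted and non-infarcted side), against 2.77 and 2.94 CPM in PT 1 m. These are 114 and 170 reads in PT 1 m LEV, against 37 and 41 in PT 1 m. The log2 change was 1.12 (SE 0.16, limma adjusted p = 0.00128), and the nearest other libraries were those after withdrawal, at 6.32 and 5.75 CPM. Nr4a1, an orphan nuclear receptor, had 55.6 and 56.6 CPM in PT 1 m LEV, against 37.3 and 38.7 CPM in PT 1 m (log2 0.55, SE 0.09, limma adjusted p = 0.00231). Fosb had 2.52 and 3.31 CPM in PT 1 m LEV, against 0.822 and 1.72 CPM in PT 1 m (log2 0.81, SE 0.20, limma adjusted p = 0.0204). For Fosb adjusted p was 0.148 without PT 1 m LEV infarcted, 0.108 without PT 1 m LEV non-infarcted and 0.154 without PT 1 m infarcted. Fos had 5.10 and 5.5 CPM in PT 1 m LEV, against 3.21 and 3.08 CPM in PT 1 m (log2 0.60, SE 0.17, limma adjusted p = 0.0352). For Fos adjusted p was 0.132 without PT 1 m LEV infarcted, 0.21 without PT 1 m LEV non-infarcted, 0.138 without PT 1 m infarcted and 0.11 without PT 1 m non-infarcted. Other classic members were not called. Arc had 57.0 and 69.8 CPM in PT 1 m LEV, against 52.8 and 52.9 CPM in PT 1 m (adjusted p = 0.055 by limma). Junb had 34.1 and 37.2 CPM in PT 1 m LEV, against 31.5 and 33.4 CPM in PT 1 m (adjusted p = 0.359 by limma). Without the libraries lowest in choroid plexus genes, adjusted p was 0.0628 for Npas4 and 0.0739 for Nr4a1 by limma. TMM scaling gave 7 factors that rose, edgeR 6 and DESeq2 1. DESeq2 gave no adjusted p for some genes (28 of the 165 called genes that the naming rule picked). Such genes count as not called, so its number can be low without disagreement. With 1 of the 4 libraries left out, the number that rose over the list ranged from 2 without PT 1 m LEV infarcted or PT 1 m LEV non-infarcted or PT 1 m infarcted to 3 without PT 1 m non-infarcted.

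Of the effectors, 9 of 25 rose (36.0%) and 1 fell (4.0%), against 7.12% and 8.46% of all genes. Nptx2, a secreted pentraxin that gathers AMPA receptors, had 21.0 and 21.1 CPM in PT 1 m LEV, against 12.1 and 10.8 CPM in PT 1 m, a log2 change of 0.82 (SE 0.12, limma adjusted p = 0.00191). Dusp5, a nuclear phosphatase of ERK kinases, had 35.4 and 34.7 CPM in PT 1 m LEV, against 17.5 and 21.4 CPM in PT 1 m (log2 0.82, SE 0.10, limma adjusted p = 0.000858). Homer1, a scaffold of the postsynaptic density, had 110.1 and 108 CPM in PT 1 m LEV, against 80.3 and 68.4 CPM in PT 1 m (log2 0.55, SE 0.09, limma adjusted p = 0.00236). Both treated libraries were above both untreated ones for each of the 3, as for 24.5% of all genes, and their calls held without each of the 4 libraries. Bdnf, Dusp6, Gadd45b, Gadd45g, Nrn1 and Rgs2 rose too, by log2 values of 0.34 to 0.58. For Bdnf adjusted p was 0.145 without PT 1 m LEV infarcted, 0.182 without PT 1 m LEV non-infarcted and 0.301 without PT 1 m infarcted. For Gadd45b adjusted p was 0.264 without PT 1 m LEV infarcted, 0.06 without PT 1 m LEV non-infarcted and 0.198 without PT 1 m infarcted. For Gadd45g adjusted p was 0.117 without PT 1 m LEV non-infarcted, 0.0509 without PT 1 m infarcted and 0.052 without PT 1 m non-infarcted. For Nrn1 adjusted p was 0.0752 without PT 1 m LEV infarcted, 0.169 without PT 1 m LEV non-infarcted and 0.126 without PT 1 m infarcted. Dusp6 had 46.4 and 52.9 CPM in PT 1 m LEV, against 33.4 and 39.5 CPM in PT 1 m (log2 0.44, SE 0.09, limma adjusted p = 0.00859). For Dusp6 adjusted p was 0.0564 without PT 1 m LEV infarcted, 0.0789 without PT 1 m LEV non-infarcted and 0.0814 without PT 1 m infarcted. Rgs2, a regulator of G-protein signalling, had 18.6 and 18.8 CPM in PT 1 m LEV, against 13.5 and 13 CPM in PT 1 m (log2 0.47, SE 0.11, limma adjusted p = 0.0176). For Rgs2 adjusted p was 0.076 without PT 1 m LEV infarcted, 0.143 without PT 1 m LEV non-infarcted and 0.104 without PT 1 m infarcted. Scg2, the precursor of secretoneurin, fell (70.9 and 85.8 CPM in PT 1 m LEV, against 98.7 and 105 CPM in PT 1 m; log2 -0.38, SE 0.09, limma adjusted p = 0.0129). For Scg2 adjusted p was 0.167 without PT 1 m LEV infarcted and 0.0836 without PT 1 m infarcted. The number that rose ranged from 3 without PT 1 m LEV non-infarcted or PT 1 m infarcted to 8 without PT 1 m non-infarcted. Without the libraries lowest in choroid plexus genes adjusted p was 0.0519 for Nptx2 and 0.0521 for Homer1 by limma, and the number that rose was 1, and 0 for the transcription factors.

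The start regions of Npas4 and Nr4a1 are shown since cyclic AMP response elements (CRE) bring calcium signals to such genes. The CRE core TGACG was searched on both strands in the same kind of window, and its matches are in capitals. It occurs in 20.8% of the 32851 windows and in 31.2% of those of the genes tested here. Each of the 4 activity factors that rose has a match, as have 6 of the 10 others with a window, and among effectors 3 of 7 that rose and 8 of 11 others have one. The full element TGACGTCA is in 0 of the 4 factors and 0 of the 7 effectors that rose, in 0 of the 10 other factors and in 5 of the 11 other effectors. Npas4 holds 2 and Nr4a1 holds 4.
Npas4, minus strand, chr19:4989922-4990221: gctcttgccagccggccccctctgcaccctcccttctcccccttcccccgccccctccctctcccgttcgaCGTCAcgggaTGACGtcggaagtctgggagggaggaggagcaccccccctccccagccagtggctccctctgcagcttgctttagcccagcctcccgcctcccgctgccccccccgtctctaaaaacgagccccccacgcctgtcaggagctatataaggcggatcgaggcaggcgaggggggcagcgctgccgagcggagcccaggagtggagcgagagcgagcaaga
Nr4a1, plus strand, chr15:101266596-101266895: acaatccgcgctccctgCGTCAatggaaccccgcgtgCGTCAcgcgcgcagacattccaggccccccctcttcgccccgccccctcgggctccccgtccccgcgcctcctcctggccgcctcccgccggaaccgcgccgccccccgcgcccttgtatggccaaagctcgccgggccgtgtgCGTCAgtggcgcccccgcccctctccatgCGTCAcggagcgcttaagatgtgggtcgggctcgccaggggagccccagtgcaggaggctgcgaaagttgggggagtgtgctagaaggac

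**Figure D4:**
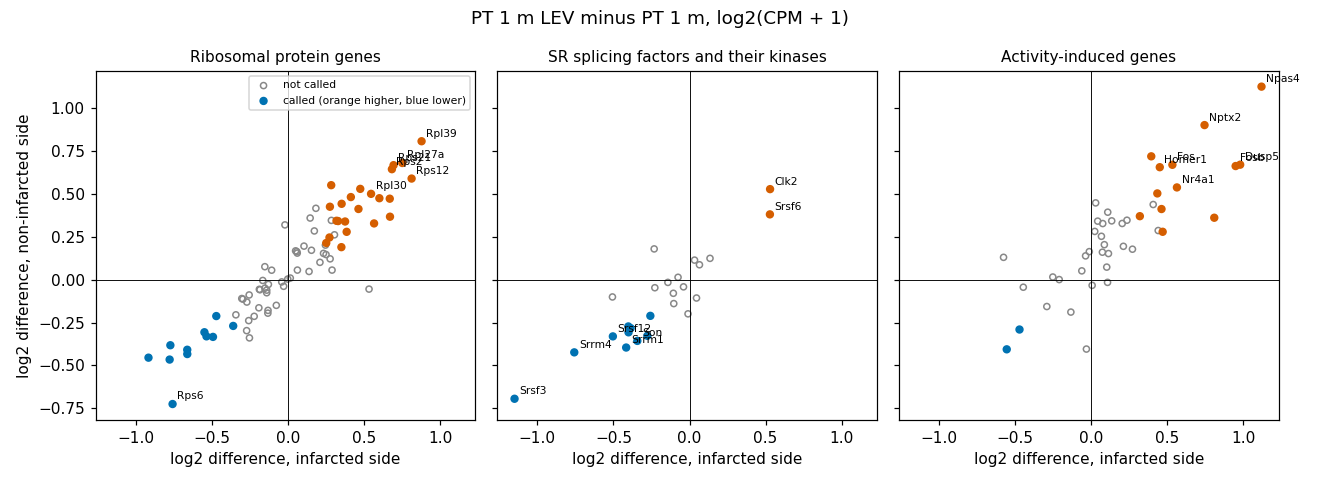
Difference of log2(CPM + 1) between PT 1 m LEV and PT 1 m on the infarcted side (x axis) and the non-infarcted side (y axis) for 3 groups of genes. Filled points are called, orange higher and blue lower; Npas4 lies highest among activity genes, Srsf3 lowest among SR genes, and ribosomal protein genes spread from Rps6 to Rpl39.

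The median log2 change, beside -0.04 over all genes, was 0.15 for activity-induced transcription factors, 0.24 for effectors and 0.13 for metallothionein and zinc genes. It was 0.34 for replication-dependent histone genes, 0.28 for ribosomal protein pseudogenes, 0.11 for ribosomal protein genes and 0.07 for nuclear respiratory chain genes. Quantile scaling brought the ribosomal protein median to -0.03 and so turned its sign, and the respiratory chain median to -0.0042. Splicing lists lay slightly below all genes, at -0.12 for SR factors and -0.10 for the spliceosome core. The transmitter lists had medians of 0.23 for GABA synthesis, transport and GABA-B genes, 0.04 for GABA-A subunits, 0.01 for potassium channels and -0.02 for vesicle release, the last of these 0.04 with TMM scaling.

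Sv2a, the gene of the drug's binding protein, was not called. It had 120.5 and 149.7 CPM in PT 1 m LEV (infarcted and non-infarcted side), against 156 and 139.9 CPM in PT 1 m, log2 -0.14 (SE 0.09, limma adjusted p = 0.364), lower on the infarcted and higher on the non-infarcted side. Of the 27 genes for SV2 proteins and vesicle release, Slc17a7 rose and 5 fell (18.5%): Bsn, Cplx2, Stx1a, Sv2c and Unc13a. Over all genes 7.12% rose and 8.46% fell. For Cplx2 adjusted p was 0.144 without PT 1 m LEV infarcted, 0.0848 without PT 1 m LEV non-infarcted and 0.177 without PT 1 m infarcted, and for Stx1a 0.236 without PT 1 m LEV infarcted and 0.17 without PT 1 m infarcted. Bsn, a giant scaffold of the active zone, had 259 and 234 CPM in PT 1 m LEV, against 505 and 345 CPM in PT 1 m (log2 -0.76, SE 0.16, limma adjusted p = 0.00884), with the untreated sides far apart. For Bsn adjusted p was 0.08 without PT 1 m LEV infarcted, 0.079 without PT 1 m LEV non-infarcted and 0.0746 without PT 1 m infarcted. Unc13a, which primes vesicles, had 74.5 and 88.9 CPM in PT 1 m LEV, against 106 and 108 CPM in PT 1 m (log2 -0.39, SE 0.08, limma adjusted p = 0.00607). For Unc13a adjusted p was 0.105 without PT 1 m LEV infarcted and 0.0518 without PT 1 m infarcted. Sv2c had 9.19 and 10.3 CPM in PT 1 m LEV, against 15.7 and 12.5 CPM in PT 1 m (log2 -0.48, SE 0.14, limma adjusted p = 0.0324). For Sv2c adjusted p was 0.269 without PT 1 m LEV infarcted, 0.0708 without PT 1 m LEV non-infarcted and 0.279 without PT 1 m infarcted. The number that fell ranged from 0 without PT 1 m LEV infarcted or PT 1 m infarcted to 7 without PT 1 m non-infarcted.

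GABA-A receptors are the chloride channels of fast inhibition, built mostly from alpha, beta and gamma subunits. Of 13 subunit genes tested, 3 rose (23.1%) and 0 fell, against 7.12% and 8.46% of all genes. Among those that rose, Gabrb2 had 79.5 and 82.9 CPM in PT 1 m LEV (infarcted and non-infarcted side), against 65.1 and 70.0 CPM in PT 1 m (log2 0.26, SE 0.07, limma adjusted p = 0.0249). The call was lost whichever 1 of the 4 libraries was left out, and over the list 0 to 2 subunits then rose. TMM scaling and edgeR gave 5 and DESeq2 2. For Gabrb2 adjusted p was 0.178 without PT 1 m LEV infarcted, 0.0869 without PT 1 m LEV non-infarcted, 0.122 without PT 1 m infarcted and 0.0978 without PT 1 m non-infarcted. Among the subunits that were not called, Gabra2, Gabra4, Gabra5 and Gabrd had log2 values from -0.09 to 0.23.

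Genes that make, move or respond to GABA gave 5 that rose of 18 (27.8%) and 0 that fell: Gabbr1, Gad2, Kctd12, Kctd16 and Slc12a2. Over all genes 7.12% rose and 8.46% fell. For Gabbr1 adjusted p was 0.223 without PT 1 m LEV infarcted, 0.134 without PT 1 m LEV non-infarcted and 0.297 without PT 1 m non-infarcted. Kctd12, an auxiliary subunit that speeds desensitisation of GABA-B receptors, had 129 and 119 CPM in PT 1 m LEV (infarcted and non-infarcted side), against 72 and 80.1 CPM in PT 1 m, a log2 change of 0.70 (SE 0.08, limma adjusted p = 0.000526) that held without each library. Kctd16, its relative, had 149 and 136 CPM in PT 1 m LEV, against 94.9 and 107 CPM in PT 1 m (log2 0.49, SE 0.08, limma adjusted p = 0.003). For Kctd16 adjusted p was 0.0695 without PT 1 m LEV infarcted. Gad2, a GABA-making enzyme at terminals, had 94.2 and 99.0 CPM in PT 1 m LEV, against 78.4 and 73.9 CPM in PT 1 m (log2 0.34, SE 0.08, limma adjusted p = 0.0125). For Gad2 adjusted p was 0.0761 without PT 1 m LEV infarcted, 0.0993 without PT 1 m LEV non-infarcted and 0.0984 without PT 1 m non-infarcted. Slc12a2, the chloride importer NKCC1, had 52.9 and 35.3 CPM in PT 1 m LEV, against 28.3 and 27.3 CPM in PT 1 m (log2 0.62, SE 0.13, limma adjusted p = 0.00907). This gene is also strong in choroid plexus, whose summed level was highest of the 4 in PT 1 m LEV infarcted (2017 CPM). The choroid plexus sum was 1594 CPM in PT 1 m non-infarcted, where Slc12a2 was at 27.3 CPM. The part of this tissue in the change of Slc12a2 was not tested. For Slc12a2 adjusted p was 0.155 without PT 1 m LEV infarcted and 0.0797 without PT 1 m infarcted. The number that rose ranged from 1 without PT 1 m LEV infarcted to 7 without PT 1 m infarcted, and was 9 with TMM scaling and 8 by edgeR and by DESeq2.

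The channel and receptor lists stand beside 7.12% higher and 8.46% lower over all genes. Of 42 potassium channel genes, 8 rose (19.0%) and 1 fell (2.38%). Kcnq3, a subunit of the M current, had 81.5 and 75.9 CPM in PT 1 m LEV, against 60.4 and 60.5 CPM in PT 1 m (log2 0.37, SE 0.09, limma adjusted p = 0.0169). For Kcnq3 adjusted p was 0.204 without PT 1 m LEV infarcted, 0.0629 without PT 1 m infarcted and 0.0903 without PT 1 m non-infarcted. Kcnmb4, a neuronal subunit of BK channels, had 105 and 95.1 CPM in PT 1 m LEV, against 73.6 and 71.4 CPM in PT 1 m (log2 0.46, SE 0.08, limma adjusted p = 0.00325). For Kcnmb4 adjusted p was 0.0724 without PT 1 m LEV infarcted. The number that rose ranged from 0 without PT 1 m LEV infarcted to 5 without PT 1 m infarcted. Of 31 sodium, calcium and HCN channel genes, 4 rose (12.9%) and 2 fell (6.45%). With 1 library left out 1 to 3 rose and 0 to 2 fell. Scn1a, a sodium channel gene of interneurons whose loss causes Dravet syndrome in people, fell, with 51.7 and 58.2 CPM in PT 1 m LEV, against 74.4 and 74.8 CPM in PT 1 m (log2 -0.44, SE 0.07, limma adjusted p = 0.00253). For Scn1a adjusted p was 0.0517 without PT 1 m LEV infarcted. Among 17 ionotropic glutamate receptor genes 1 rose and 1 fell. Grik2, a kainate receptor gene, had 103 and 106 CPM in PT 1 m LEV, against 79.5 and 77.6 CPM in PT 1 m (log2 0.41, SE 0.08, limma adjusted p = 0.006). For Grik2 adjusted p was 0.0542 without PT 1 m LEV infarcted and 0.0564 without PT 1 m LEV non-infarcted. Gria3, an AMPA receptor gene, had 192 and 194 CPM in PT 1 m LEV, against 240.3 and 224 CPM in PT 1 m (log2 -0.27, SE 0.07, limma adjusted p = 0.0249). For Gria3 adjusted p was 0.15 without PT 1 m LEV infarcted, 0.118 without PT 1 m LEV non-infarcted and 0.219 without PT 1 m infarcted.

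Ribosomal protein genes moved in both directions. Of 80 tested, 23 rose (28.8%) and 11 fell (13.8%), against 7.12% and 8.46% of all genes. This excess of rises was not kept in every fit. Without PT 1 m LEV non-infarcted as many fell as rose, and without the libraries lowest in choroid plexus genes more fell than rose. Their summed level was 39621 and 39918 CPM in PT 1 m LEV (infarcted and non-infarcted side), against 35193 and 35555 CPM in PT 1 m. Rpl39, a small protein of the exit tunnel, had 824 and 736 CPM in PT 1 m LEV, against 448 and 420.0 CPM in PT 1 m (log2 0.84, SE 0.09, limma adjusted p = 0.000472). Rps21, whose reads are the same as those of Mir3091, had 1539 and 1361 CPM in PT 1 m LEV, against 950.3 and 857 CPM in PT 1 m (log2 0.68, SE 0.08, limma adjusted p = 0.000639). Rps2 had 884 and 930.1 CPM in PT 1 m LEV, against 549.7 and 595 CPM in PT 1 m (log2 0.66, SE 0.09, limma adjusted p = 0.000919). Its reads are the same as those of Snora64, a small nucleolar RNA gene in its intron. Of the 23 genes that rose, 5 have reads identical to those of another gene. Rps6, the phosphorylated protein of the small subunit, went the other way, with 121 and 132 CPM in PT 1 m LEV (infarcted and non-infarcted side), against 205 and 218 CPM in PT 1 m. As for 2666 of 16057 genes, both treated libraries were below the 9 others, which ranged from 193 to 449 CPM. Rps6 fell by 0.74 on the log2 scale (SE 0.09, limma adjusted p = 0.000724). These 4 genes were called without each library. The number that rose ranged from 7 without PT 1 m LEV infarcted to 17 without PT 1 m non-infarcted, and the number that fell ranged from 1 without PT 1 m LEV infarcted to 11 without PT 1 m LEV non-infarcted.

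Ribosomal protein pseudogenes, intronless copies of such genes, were among the genes that rose most. Of 33 tested, 9 rose (27.3%) and 2 fell (6.06%), against 7.12% and 8.46% of all genes. Rpl21-ps15 (ENSMUSG00000083596.4, chromosome X, 151215167 to 151215649) had 41.1 and 37.3 CPM in PT 1 m LEV (infarcted and non-infarcted side), against 7.40 and 7.75 CPM in PT 1 m, a log2 change of 2.23 (SE 0.14, limma adjusted p = 4.41e-05). No other library exceeded 7.78 CPM. The parent gene Rpl21 had 50.8 and 53.7 CPM in PT 1 m LEV, against 44.9 and 43.9 CPM in PT 1 m, a log2 change of 0.23 (SE 0.08, limma adjusted p = 0.0679), not called. Rpl30-ps10 had 13.3 and 13.7 CPM in PT 1 m LEV, against 2.39 and 4.02 CPM in PT 1 m (log2 1.82, SE 0.20, limma adjusted p = 0.000521). Its parent Rpl30 had 324 and 333 CPM in PT 1 m LEV, against 222 and 235 CPM in PT 1 m (log2 0.52, SE 0.07, limma adjusted p = 0.00129). Rps12-ps4 had 13 and 9.96 CPM in PT 1 m LEV, against 2.54 and 3.59 CPM in PT 1 m (log2 1.62, SE 0.19, limma adjusted p = 0.000645). Its parent Rps12, with the same reads as Snord100 and Gm23130, had 1096 and 1066 CPM in PT 1 m LEV, against 623 and 708 CPM in PT 1 m (log2 0.70, SE 0.10, limma adjusted p = 0.00164). Rpl39-ps had 17.1 and 14.4 CPM in PT 1 m LEV, against 5.60 and 6.82 CPM in PT 1 m (log2 1.22, SE 0.17, limma adjusted p = 0.00113). These 4 pseudogene calls held without each library. Without the libraries lowest in choroid plexus genes limma gave adjusted p = 0.0658 for Rpl39-ps. Reads of a near-identical copy can be split between parent and pseudogene, and how reads were given to genes is not stated, so the levels of each are uncertain. Over all annotated processed pseudogenes, 18% of 189 tested rose and 4.76% fell. A gene without an adjusted p from DESeq2 counts as not called in its number below. The ribosomal pseudogene number that rose ranged from 4 without PT 1 m LEV infarcted to 7 without PT 1 m non-infarcted, and was 5 by DESeq2.

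Replication-dependent histone genes, whose messages lack a poly(A) tail, gave 15 of 56 that rose (26.8%) and 1 that fell (1.79%). For this list and those that follow, the shares over all genes were 7.12% higher and 8.46% lower. H4c9 had 35.7 and 33.6 CPM in PT 1 m LEV, against 14.9 and 15.9 CPM in PT 1 m (log2 1.12, SE 0.13, limma adjusted p = 0.000598), called without each library. H3c7 had 74.9 and 60.7 CPM in PT 1 m LEV, against 29.8 and 34.4 CPM in PT 1 m (log2 1.05, SE 0.17, limma adjusted p = 0.00271). For H3c7 adjusted p was 0.0696 without PT 1 m LEV infarcted. Histone genes of a class are near-identical, so reads may be shared among them. The number that rose ranged from 3 without PT 1 m LEV infarcted to 11 without PT 1 m non-infarcted. Small nucleolar RNA genes gave 11 of 63 that rose (17.5%) and 1 that fell (1.59%), but 7 of the 11 have exactly the reads of another gene, mostly their host. Whether CAGE reads given to these genes come from the small RNAs themselves was not tested. Over the 63 genes 3 rose without PT 1 m LEV infarcted, 8 to 10 without any other of the 4, and 0 without the libraries lowest in choroid plexus genes. Translation factors gave 7 of 46 that rose and 4 that fell, and 2 to 5 and 1 to 2 with 1 library left out. Eef2, the elongation factor of translocation, had 259 and 284 CPM in PT 1 m LEV, against 191 and 170.0 CPM in PT 1 m (log2 0.59, SE 0.09, limma adjusted p = 0.00216). Eif4g2, an initiation factor, had 155 and 183 CPM in PT 1 m LEV, against 273 and 258 CPM in PT 1 m (log2 -0.65, SE 0.10, limma adjusted p = 0.00199). Both were called without each library, and without the libraries lowest in choroid plexus genes adjusted p was 0.0987 for Eef2 and 0.0509 for H4c9 by limma. Among 75 mitochondrial ribosomal protein genes, 6 rose (8.00%) and 12 fell (16.0%). Mrpl3 had 149 and 133 CPM in PT 1 m LEV, against 90.4 and 85.9 CPM in PT 1 m (log2 0.67, SE 0.08, limma adjusted p = 0.000717). With 1 library left out, the number on this list that fell ranged from 0 without PT 1 m LEV infarcted to 7 without PT 1 m LEV non-infarcted, and 3 to 4 rose. With TMM scaling it gave 9 higher and 6 lower, by edgeR 7 and 7 and by DESeq2 7 and 4.

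Nuclear genes of the respiratory chain leaned upward, 15 of 78 higher (19.2%) and 6 lower (7.69%), against 7.12% and 8.46% of all genes. The lean was lost in some fits. Without PT 1 m infarcted as many fell as rose, and without the libraries lowest in choroid plexus genes more fell than rose. Atp5e, a small subunit of ATP synthase, had 754 and 697 CPM in PT 1 m LEV, against 416 and 441 CPM in PT 1 m (log2 0.76, SE 0.07, limma adjusted p = 0.000305). Ndufb2 of complex I had 667 and 638 CPM in PT 1 m LEV, against 399 and 446 CPM in PT 1 m (log2 0.63, SE 0.08, limma adjusted p = 0.000995). Sdhb, the iron-sulphur subunit of succinate dehydrogenase, fell, with 173 and 186 CPM in PT 1 m LEV, against 263 and 283 CPM in PT 1 m (log2 -0.60, SE 0.07, limma adjusted p = 0.000743). Sdhc, a membrane anchor of the same enzyme, rose, with 41.9 and 44.3 CPM in PT 1 m LEV, against 24.1 and 24.0 CPM in PT 1 m (log2 0.82, SE 0.12, limma adjusted p = 0.00159). These 4 were called without each library, and without the libraries lowest in choroid plexus genes adjusted p was 0.0558 for Ndufb2 and 0.117 for Sdhc by limma. The number that rose ranged from 3 without PT 1 m LEV infarcted to 11 without PT 1 m non-infarcted, and was 25 by DESeq2.

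Genes of SR splicing factors and their kinases leaned downward. Of 25 tested, 10 fell (40.0%, against 8.46% of all genes) and 2 rose (8.00%). This list too was chosen with earlier results of these data known, so its share is a description and not a test. Srsf3 (ENSMUSG00000071172.13, chromosome 17, 29032628 to 29043373), which also guides mRNA export, had 53.6 and 71.2 CPM in PT 1 m LEV (infarcted and non-infarcted side), against 120.2 and 116 CPM in PT 1 m. The 9 other libraries ranged from 111 to 197 CPM, so both treated libraries were lowest of 11, as for 2666 of 16057 genes. Its log2 change was -0.92 (SE 0.10, limma adjusted p = 0.000472), called without each library. Srrm1, a coactivator of splicing, had 105 and 107 CPM in PT 1 m LEV, against 141 and 141 CPM in PT 1 m (log2 -0.41, SE 0.07, limma adjusted p = 0.00243), also called without each library. For Srrm1 limma gave an adjusted p of 0.0859 without the libraries lowest in choroid plexus genes. Srrm4, the neuronal regulator of microexons, had 16.3 and 18.4 CPM in PT 1 m LEV, against 28.2 and 25 CPM in PT 1 m (log2 -0.59, SE 0.10, limma adjusted p = 0.00331). For Srrm4 adjusted p was 0.0709 without PT 1 m LEV infarcted. Srsf6 rose, with 121 and 109.7 CPM in PT 1 m LEV, against 83.3 and 84.0 CPM in PT 1 m (log2 0.45, SE 0.08, limma adjusted p = 0.00485). For Srsf6 adjusted p was 0.0698 without PT 1 m LEV infarcted and 0.0509 without PT 1 m infarcted. Clk2, a kinase of SR proteins, also rose, with 61.8 and 51.8 CPM in PT 1 m LEV, against 42.5 and 35.6 CPM in PT 1 m (log2 0.53, SE 0.12, limma adjusted p = 0.011). For Clk2 adjusted p was 0.132 without PT 1 m LEV infarcted, 0.0595 without PT 1 m LEV non-infarcted and 0.0653 without PT 1 m non-infarcted. The number that fell ranged from 2 without PT 1 m LEV infarcted to 7 without PT 1 m non-infarcted, and was 1 without the libraries lowest in choroid plexus genes.

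The spliceosome core gave 15 of 49 that fell (30.6%) and 8 that rose (16.3%), against 8.46% and 7.12% of all genes. Snrnp35, of the minor spliceosome, had 8.43 and 9.21 CPM in PT 1 m LEV, against 14.7 and 15.1 CPM in PT 1 m (log2 -0.70, SE 0.11, limma adjusted p = 0.00216). Prpf8, the scaffold at the catalytic centre, rose instead, with 69.7 and 72.8 CPM in PT 1 m LEV, against 44.6 and 39.9 CPM in PT 1 m (log2 0.74, SE 0.10, limma adjusted p = 0.000971). The Sm protein gene Snrpd2 rose too, with 247 and 265 CPM in PT 1 m LEV, against 174 and 186 CPM in PT 1 m (log2 0.51, SE 0.07, limma adjusted p = 0.00125). These 3 were called without each library. The number of core genes that fell ranged from 1 without PT 1 m LEV infarcted to 8 without PT 1 m non-infarcted, and with TMM scaling 10 rose and 8 fell. By edgeR 9 fell and by DESeq2 7. Among 49 hnRNP and RNA-binding regulators 7 rose (14.3%) and 8 fell (16.3%). With 1 library left out 1 to 4 rose and 1 to 5 fell, with 1 and 1 without PT 1 m LEV infarcted. Rbm5, a regulator of apoptotic splice choices, had 60.2 and 57.1 CPM in PT 1 m LEV, against 93.8 and 92.2 CPM in PT 1 m (log2 -0.66, SE 0.07, limma adjusted p = 0.000341). Ddx5, an RNA helicase, had 429 and 418 CPM in PT 1 m LEV, against 300.3 and 286 CPM in PT 1 m (log2 0.53, SE 0.09, limma adjusted p = 0.00243). Both were called without each library, and without the libraries lowest in choroid plexus genes adjusted p was 0.076 for Snrnp35, 0.0929 for Snrpd2 and 0.111 for Ddx5 by limma.

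The genes that fell most on both sides were of several kinds. Both treated libraries were the lowest of 11 for 2666 of all 16057 genes. Hes5 (ENSMUSG00000048001.7, chromosome 4, 154960923 to 154962371), a repressor induced by Notch in astrocytes and stem cells, had 15 and 17.1 CPM in PT 1 m LEV (infarcted and non-infarcted side), against 36.3 and 32.4 CPM in PT 1 m, a log2 change of -1.05 (SE 0.13, limma adjusted p = 0.000724). Treated libraries were the lowest of 11, and the call held under all 17 alternatives. Bc1, a small RNA that restrains translation in dendrites, had 13.1 and 12.6 CPM in PT 1 m LEV, against 27.6 and 27.6 CPM in PT 1 m (log2 -1.05, SE 0.14, limma adjusted p = 0.000995). Its reads are identical to those of the overlapping entry LTO1, so these cannot be separated, and without the libraries lowest in choroid plexus genes adjusted p was 0.0766 for Bc1 by limma. Rny1, a Y RNA bound by the Ro protein, had 0.315 and 0.179 CPM in PT 1 m LEV, against 21.1 and 12.8 CPM in PT 1 m. That is 5 and 4 reads in PT 1 m LEV, against 282 and 179 in PT 1 m (log2 -3.81, SE 0.29, limma adjusted p = 5.62e-05). It was 11.5 CPM in naive but 0.156 and 0.170 CPM in PT 7 d LEV, 0 and 0.810 CPM in PT 7 d and 0.327 and 0.475 CPM after withdrawal. Low Rny1 thus went with treated and untreated libraries alike, and PT 1 m and naive were the high ones. Since CAGE reads capped starts, it is open whether the reads given to Rny1 and Bc1 come from these small RNAs. This was not tested. Zfp36l1, which speeds decay of AU-rich messages, had 42.7 and 39.6 CPM in PT 1 m LEV, against 74.7 and 70.2 CPM in PT 1 m (log2 -0.80, SE 0.09, limma adjusted p = 0.000558). Unc13c, a priming protein of vesicle release, had 4.66 and 5.41 CPM in PT 1 m LEV, against 11.2 and 10.1 CPM in PT 1 m (log2 -0.95, SE 0.17, limma adjusted p = 0.00364). For Unc13c adjusted p was 0.0771 without PT 1 m LEV infarcted. Slc7a11, the exchanger of cystine for glutamate, had 22.7 and 23.0 CPM in PT 1 m LEV, against 38.6 and 53.2 CPM in PT 1 m (log2 -0.96, SE 0.24, limma adjusted p = 0.0197). For Slc7a11 adjusted p was 0.204 without PT 1 m LEV infarcted, 0.0716 without PT 1 m LEV non-infarcted and 0.17 without PT 1 m non-infarcted. Nupr1, a stress-induced nuclear protein, had 3.96 and 4.96 CPM in PT 1 m LEV, against 9.12 and 12.1 CPM in PT 1 m (log2 -1.08, SE 0.31, limma adjusted p = 0.036). For Nupr1 adjusted p was 0.329 without PT 1 m LEV infarcted, 0.0701 without PT 1 m LEV non-infarcted and 0.238 without PT 1 m non-infarcted.

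Clock genes gave 5 of 18 that fell (27.8%) and 2 that rose (11.1%), and 2 to 4 and 0 to 1 with 1 library left out. Per3, a period gene, had 37.1 and 35.2 CPM in PT 1 m LEV (infarcted and non-infarcted side), against 58.8 and 61.5 CPM in PT 1 m (log2 -0.72, SE 0.09, limma adjusted p = 0.000692). Nr1d1, the repressor REV-ERB alpha, had 44.4 and 46.8 CPM in PT 1 m LEV, against 67.2 and 69.1 CPM in PT 1 m (log2 -0.57, SE 0.08, limma adjusted p = 0.00115). Both were called without each library, and without the libraries lowest in choroid plexus genes adjusted p was 0.0542 for Nr1d1 by limma. The hour of sampling is not given in the labels. Per1 had 40.5 and 45.9 CPM in PT 1 m LEV, against 59.9 and 61.2 CPM in PT 1 m (log2 -0.48, SE 0.08, limma adjusted p = 0.00359). For Per1 adjusted p was 0.0767 without PT 1 m LEV infarcted. Of 22 glucocorticoid-induced genes, 4 rose (18.2%) and 2 fell (9.09%). For this list and the clock genes, the shares over all genes were 7.12% higher and 8.46% lower. Those that rose ranged from 0 without PT 1 m LEV non-infarcted to 3 without PT 1 m non-infarcted. Zbtb16 fell, with 34.9 and 43.3 CPM in PT 1 m LEV, against 73.4 and 68.7 CPM in PT 1 m (log2 -0.85, SE 0.10, limma adjusted p = 0.000717). Both treated libraries were lowest of 11, as for 2666 of 16057 genes. Mfsd2a, a lipid transporter of the blood-brain barrier, rose, with 17.5 and 20.5 CPM in PT 1 m LEV, against 10.8 and 10.8 CPM in PT 1 m (log2 0.76, SE 0.15, limma adjusted p = 0.00804). For Mfsd2a adjusted p was 0.0921 without PT 1 m LEV non-infarcted. Sgk1, a kinase of ion transport, rose too, with 60.2 and 64.3 CPM in PT 1 m LEV, against 39.2 and 49.9 CPM in PT 1 m (log2 0.48, SE 0.10, limma adjusted p = 0.00961). For Sgk1 adjusted p was 0.0799 without PT 1 m LEV infarcted, 0.0788 without PT 1 m LEV non-infarcted and 0.0994 without PT 1 m infarcted.

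Some non-coding and little known genes were among those that changed most. Frmd8os, an antisense transcript, had 16.9 and 10.6 CPM in PT 1 m LEV, against 2.62 and 3.01 CPM in PT 1 m (log2 1.92, SE 0.22, limma adjusted p = 0.000558). Whether counting used strand is not stated, so its reads and those of overlapping genes may not be told apart. Whether the CAGE reads given to Rmrp come from the RNA itself was not tested. Rmrp, the RNA of RNase MRP, which processes ribosomal RNA, is listed under 2 identifiers with the same reads. It had 5.41 and 4.07 CPM in PT 1 m LEV, against 0.747 and 0.430 CPM in PT 1 m (log2 1.85, SE 0.27, limma adjusted p = 0.00147). The imprinted long RNA Meg3, often retained in the nucleus, had 74.0 and 70.1 CPM in PT 1 m LEV, against 121 and 116 CPM in PT 1 m (log2 -0.71, SE 0.09, limma adjusted p = 0.000919). Gp1bb, a subunit of a platelet receptor, had 8.50 and 9.29 CPM in PT 1 m LEV, against 17.7 and 17.1 CPM in PT 1 m (log2 -0.90, SE 0.13, limma adjusted p = 0.00164). Efna1, an ephrin, had 4.15 and 4.47 CPM in PT 1 m LEV, against 8.37 and 8.61 CPM in PT 1 m (log2 -0.84, SE 0.14, limma adjusted p = 0.00247). Cntnap5b, a neuronal adhesion protein, had 37.1 and 30.1 CPM in PT 1 m LEV, against 63.0 and 51.1 CPM in PT 1 m (log2 -0.75, SE 0.12, limma adjusted p = 0.00227). All 6 held without each library. Without the libraries lowest in choroid plexus genes limma gave adjusted p = 0.0861 for Meg3, 0.0809 for Gp1bb, 0.0821 for Efna1 and 0.176 for Cntnap5b.

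The remaining groups are given beside 7.12% higher and 8.46% lower over all genes. Of 28 chaperone and stress genes 5 rose (17.9%) and 1 fell, and 0 to 3 rose with 1 library left out. Of 23 cholesterol genes 3 rose (13%) and 0 fell, and 0 to 1 rose with 1 library left out. Of 16 interferon response genes 1 rose (6.25%) and 2 fell (12.5%). Of 20 neuropeptide genes 2 rose and 1 fell, and of 7 metabotropic glutamate receptor genes 0 rose and 1 fell. Limma called 0 of the 5 genes of the CRMP family (1 at an unadjusted p under 0.05), DESeq2 0, and edgeR and limma with TMM scaling 1 higher. Of the 12 nuclear and small structural RNAs used as a sign of RNA quality, 1 rose and 4 fell (33.3%), Meg3 and Rny1 among them, and 2 to 3 fell with 1 library left out.

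Cell type markers were counted in the same way. Of 16 interneuron genes 4 rose (25%) and 0 fell, against 7.12% and 8.46% of all genes. By sign, 11 had a log2 change above 0 and 5 below, with a median of 0.16. Their summed level was 2210.2 and 2454 CPM in PT 1 m LEV (infarcted and non-infarcted side), against 1820.3 and 1859 CPM in PT 1 m. Cck and Cnr1 are part of that sum, so it does not show that the other markers rose. Cck, the peptide of the interneurons that carry Cnr1, had 598 and 681 CPM in PT 1 m LEV, against 405 and 425 CPM in PT 1 m (log2 0.62, SE 0.10, limma adjusted p = 0.00232), called without each library. Npy, another interneuron peptide, had 97.4 and 102 CPM in PT 1 m LEV, against 81.7 and 85.5 CPM in PT 1 m (log2 0.25, SE 0.08, limma adjusted p = 0.0449). For Npy adjusted p was 0.231 without PT 1 m LEV infarcted, 0.148 without PT 1 m LEV non-infarcted, 0.14 without PT 1 m infarcted and 0.167 without PT 1 m non-infarcted. Of 9 CA1 pyramidal cell genes 3 rose (33.3%). Fibcd1 had 60.9 and 68.6 CPM in PT 1 m LEV, against 46.2 and 50.9 CPM in PT 1 m (log2 0.41, SE 0.08, limma adjusted p = 0.00571). For Fibcd1 adjusted p was 0.0612 without PT 1 m LEV non-infarcted and 0.0508 without PT 1 m infarcted. Man1a had 49.5 and 50.0 CPM in PT 1 m LEV, against 36.2 and 36.7 CPM in PT 1 m (log2 0.44, SE 0.08, limma adjusted p = 0.00522). For Man1a adjusted p was 0.0809 without PT 1 m LEV infarcted. Spink8 had 52.9 and 72.8 CPM in PT 1 m LEV, against 38.5 and 58.3 CPM in PT 1 m (log2 0.38, SE 0.11, limma adjusted p = 0.0345). For Spink8 adjusted p was 0.112 without PT 1 m LEV infarcted, 0.229 without PT 1 m LEV non-infarcted and 0.302 without PT 1 m infarcted. Dentate granule cell genes gave 3 that fell of 13 (23.1%) and 0 that rose. That number ranged from 1 without PT 1 m LEV infarcted or PT 1 m LEV non-infarcted or PT 1 m infarcted to 3 without PT 1 m non-infarcted, and was 0 without the libraries lowest in choroid plexus genes. Dsp, the desmoplakin gene and a granule cell marker, had 2.52 and 1.92 CPM in PT 1 m LEV, against 6.95 and 6.46 CPM in PT 1 m (log2 -1.26, SE 0.16, limma adjusted p = 0.000919). Without the libraries lowest in choroid plexus genes limma gave adjusted p = 0.0666 for Dsp and 0.105 for Cck. Of CA2 and CA3 genes 3 of 13 rose and 1 fell, of adult neurogenesis genes 0 of 6 rose and 2 fell, and of genes of neighbouring brain regions 1 of 18 rose and 1 fell. The dentate sum was 593 and 569 CPM in PT 1 m LEV, against 667 and 635 CPM in PT 1 m.

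Glial and immune markers gave few calls, beside 7.12% higher and 8.46% lower over all genes. Of 17 microglia genes 1 rose. P2ry13, a receptor of resting microglia, had 3.02 and 2.81 CPM in PT 1 m LEV, against 1.27 and 1.51 CPM in PT 1 m (log2 0.72, SE 0.18, limma adjusted p = 0.0225). For P2ry13 adjusted p was 0.127 without PT 1 m LEV infarcted, 0.134 without PT 1 m LEV non-infarcted and 0.179 without PT 1 m infarcted. Limma called 0 of 15 activated microglia genes (1 at an unadjusted p under 0.05), as did edgeR and DESeq2. It called 0 of 12 reactive astrocyte genes (3 at an unadjusted p under 0.05), of which edgeR and DESeq2 each called 1 lower. Activated microglia genes summed to 2313 and 2007 CPM in PT 1 m LEV, against 2525 and 2105 CPM in PT 1 m. Reactive astrocyte genes summed to 609 and 507 CPM in PT 1 m LEV, against 682 and 522 CPM in PT 1 m, higher on the infarcted side in both groups. Of 14 astrocyte genes 1 rose and 2 fell. Mlc1, a membrane protein of astrocyte endfeet, had 51.1 and 60.5 CPM in PT 1 m LEV, against 38.9 and 35.2 CPM in PT 1 m (log2 0.57, SE 0.11, limma adjusted p = 0.0071). For Mlc1 adjusted p was 0.0738 without PT 1 m LEV non-infarcted. Slc1a3, a glutamate transporter, had 211 and 226 CPM in PT 1 m LEV, against 320.1 and 295 CPM in PT 1 m (log2 -0.49, SE 0.08, limma adjusted p = 0.00325). For Slc1a3 adjusted p was 0.0739 without PT 1 m LEV infarcted. Sox9, a glial transcription factor, had 24.1 and 26.5 CPM in PT 1 m LEV, against 35.9 and 30.0 CPM in PT 1 m (log2 -0.36, SE 0.10, limma adjusted p = 0.0353). For Sox9 adjusted p was 0.335 without PT 1 m LEV infarcted and 0.259 without PT 1 m infarcted. Olig1 rose among 10 oligodendrocyte precursor genes. For Olig1 adjusted p was 0.0613 without PT 1 m LEV non-infarcted and 0.054 without PT 1 m infarcted. Ccdc39 fell among 11 ependymal genes by limma, with 0 called by edgeR, DESeq2 or TMM scaling and at an adjusted p of 0.227 without PT 1 m LEV infarcted, 0.0607 without PT 1 m LEV non-infarcted, 0.147 without PT 1 m infarcted and 0.0861 without PT 1 m non-infarcted. Endothelial genes gave 1 higher (Slc2a1) and 3 lower (Esam, Flt1 and Vwf) of 14. For Slc2a1 adjusted p was 0.0765 without PT 1 m LEV infarcted, 0.211 without PT 1 m LEV non-infarcted, 0.14 without PT 1 m infarcted and 0.0637 without PT 1 m non-infarcted. For Esam adjusted p was 0.227 without PT 1 m LEV infarcted, 0.0835 without PT 1 m LEV non-infarcted, 0.051 without PT 1 m infarcted and 0.218 without PT 1 m non-infarcted. For Flt1 adjusted p was 0.206 without PT 1 m LEV infarcted, 0.0547 without PT 1 m LEV non-infarcted, 0.0822 without PT 1 m infarcted and 0.105 without PT 1 m non-infarcted. For Vwf adjusted p was 0.257 without PT 1 m LEV infarcted, 0.0734 without PT 1 m LEV non-infarcted and 0.267 without PT 1 m non-infarcted. Of 14 oligodendrocyte genes 2 rose. Mal, a protein of myelin, had 119.5 and 129 CPM in PT 1 m LEV, against 100.1 and 103 CPM in PT 1 m (log2 0.29, SE 0.07, limma adjusted p = 0.0214). For Mal adjusted p was 0.0854 without PT 1 m LEV infarcted, 0.155 without PT 1 m LEV non-infarcted, 0.106 without PT 1 m infarcted and 0.0817 without PT 1 m non-infarcted.

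Genes that moved in opposite directions on the sides form a separate set. A rise of at least log2 1 on the infarcted side with a fall of at least 1 on the non-infarcted side was shown by 24 genes (0.149%), 13 of them in the choroid plexus list, and 0 genes showed the reverse (0%). The fit over both sides averages such values, and limma, edgeR and DESeq2 called 0 of the 24, with 0 at an unadjusted limma p under 0.05. Ttr, transthyretin, the main secreted protein of choroid plexus, had 1709 and 80.7 CPM in PT 1 m LEV (infarcted and non-infarcted side), against 36.2 and 1372 CPM in PT 1 m. The log2 differences were 5.52 and -4.07. In the 7 other libraries it ranged from 1211 to 4652 CPM. F5, coagulation factor V, had 18.9 and 1.48 CPM in PT 1 m LEV, against 0.822 and 9.25 CPM in PT 1 m (log2 3.45 and -2.05). Clic6, a chloride channel protein of that epithelium, had 19.1 and 4.07 CPM in PT 1 m LEV, against 3.36 and 12.6 CPM in PT 1 m. Ecrg4, a secreted peptide precursor, had 48.7 and 8.31 CPM in PT 1 m LEV, against 8.07 and 36.2 CPM in PT 1 m. Cox8b, a muscle form of a cytochrome oxidase subunit, had 25.9 and 7.33 CPM in PT 1 m LEV, against 2.17 and 16.4 CPM in PT 1 m. Ace, angiotensin-converting enzyme, had 40.5 and 11.5 CPM in PT 1 m LEV, against 15.8 and 38.6 CPM in PT 1 m. In all 6 the high library was the infarcted side with LEV and the non-infarcted side without it. Limma, edgeR and DESeq2 called 0 of the 16 genes of pericytes, smooth muscle and meningeal fibroblasts and 0 of the 4 blood genes, with 4 and 1 at an unadjusted limma p under 0.05. Over the 16 choroid plexus genes the median log2 difference was 2.05 on the infarcted and -1.58 on the non-infarcted side, and 0 of 16 had the same sign on both. Without PT 1 m non-infarcted, 7 of the 16 were called higher. In the other direction changes were smaller, and the 3 largest were not called by limma. Glp1r, the receptor of glucagon-like peptide, had 4.72 and 7.95 CPM in PT 1 m LEV, against 8.82 and 3.87 CPM in PT 1 m. Lbhd2 had 5.73 and 3.84 CPM in PT 1 m LEV, against 9.94 and 1.65 CPM in PT 1 m. Dlx1, an interneuron transcription factor, had 12.8 and 14.9 CPM in PT 1 m LEV, against 17.9 and 11.1 CPM in PT 1 m.

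**Figure D5:**
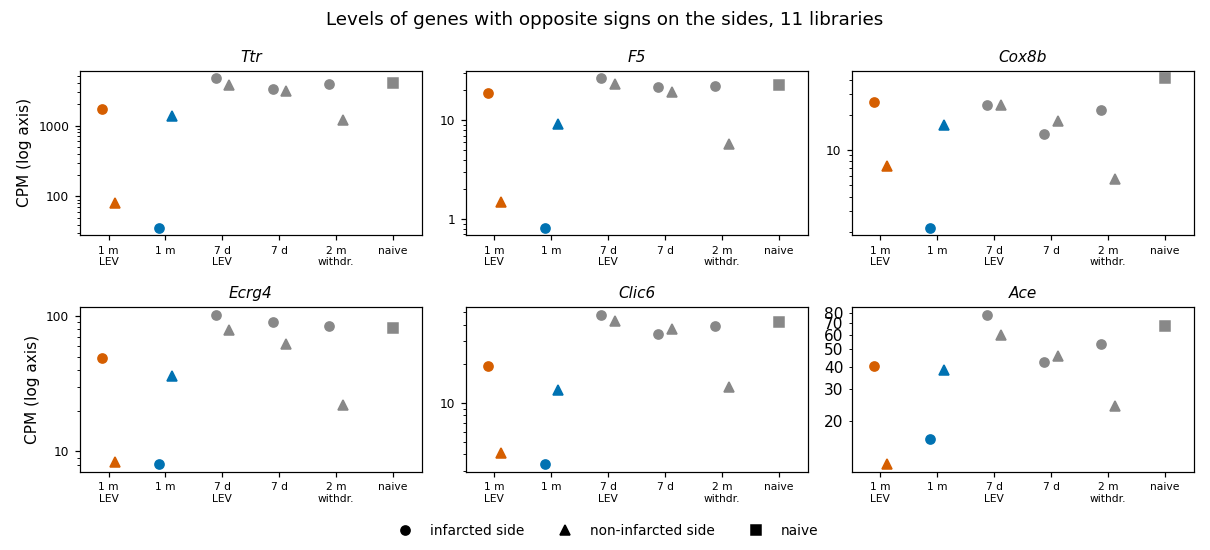
Levels (CPM, log axes) of 6 genes with opposite signs on the sides, in 11 libraries, with PT 1 m LEV in orange and PT 1 m in blue. The infarcted side (circle) is the high one in PT 1 m LEV and the low one in PT 1 m for each gene, as for Ttr (1709 against 36.2 CPM), while for Ttr the 4 PT 7 d libraries and the naive library lie above all 4 libraries of 1 m.

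At 7 d the same contrast gave 3 calls (0.0187%), against 15.6% at 1 m, by limma with 932 genes at an unadjusted p under 0.05. EdgeR gave 2 and DESeq2 gave 3. Pomc, the precursor of ACTH and endorphin, and Ajm1 rose and Eps8l1 fell. Pomc was 13.7 and 12.5 CPM in PT 7 d LEV, against 0.114 and 0.125 CPM in PT 7 d. At 1 m it was at 0 in both PT 1 m LEV libraries, against 0.0747 and 0 CPM in PT 1 m. Ajm1, a protein of cell junctions, had 59.7 and 59.7 CPM in PT 7 d LEV, against 32.6 and 37.0 CPM in PT 7 d. At 1 m it fell, with 42.3 and 45.6 CPM in PT 1 m LEV, against 64.6 and 67.2 CPM in PT 1 m (log2 -0.57, SE 0.08, limma adjusted p = 0.00126).

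Tested directly, the effect of LEV at 1 m differed from that at 7 d for 482 genes (3% of 16057), 261 with the larger value at 1 m and 221 with the smaller. Left out in turn, PT 1 m LEV infarcted reduced this to 25, PT 1 m LEV non-infarcted to 137, PT 1 m infarcted to 325 and PT 1 m non-infarcted to 272, and 4 were called without a trend of variance on level. Cnr1 had 98.9 and 116 CPM in PT 7 d LEV, against 112 and 105 CPM in PT 7 d. Its effect at 1 m minus that at 7 d was 1.41 (SE 0.14, limma adjusted p = 0.00103). Slc17a7 had 625 and 498 CPM in PT 7 d LEV, against 570.0 and 692 CPM in PT 7 d, a difference of effects of 1.22 (SE 0.17, limma adjusted p = 0.00666). The difference was 1.28 (SE 0.17, limma adjusted p = 0.005) for Mt2, 1.07 (SE 0.22, limma adjusted p = 0.0283) for Npas4 and -0.76 (SE 0.14, limma adjusted p = 0.0174) for Srsf3. The series text has treatment begin at 1 month, so the time at which PT 7 d LEV mice were dosed is unclear.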

How the data were processed

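Per the labels' protocols, RNA from whole hippocampus was made into CAGE libraries, and the authors deposited CPM per gene for 11 libraries (22377 genes). BWA 0.7.17, HISAT2 2.0.5, DESeq2 1.20.0 and GRCm38 are named in the submitters' processing notes without roles. The library totals stand in the deposited values: all CPM values were whole reads within 0.0001, 93.0 to 96.1% of each total lay in listed genes, and 109 genes were at 0. Gene positions come from GENCODE M21, which matched 22335 genes. The table had 0 columns without a sample.

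Genes with a mean of at least 1 CPM over 11 libraries (16057) were tested as log2(CPM + 1) with limma 3.58.1 (R 4.3.3), on the 10 libraries with an infarct, with terms for condition and side, a variance trend and Benjamini-Hochberg adjustment (0.05; 4 residual degrees of freedom). All conditions share 1 estimate of the spread. Counting runs on recovered reads used edgeR 4.0.16 and DESeq2 1.42.0. Genes without an adjusted p from DESeq2 count as not called in its numbers. Further alternatives changed pseudocount, filter, scaling, trend, side term and libraries. Side numbers served as the replicate block in every fit but the 1 without a side term, and the labels do not say whether the sides of a condition share animals. Self-tests on simulated data preceded the fits.

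Genes named are up to 15 per direction with the largest called change and with the largest smaller-of-the-sides change, 6 per direction with the largest opposite changes (the last 2 above a mean of 5 CPM), Sv2a, the GABA-A subunits, and up to 5 per list by the smaller-of-the-sides change of the same sign. Arc, Junb, Rpl21, Rpl30, Rps12, Pomc and Ajm1 and members given only by name were added after their values were seen. Results for some genes that this rule takes in are not reported here, though list counts include them. Members and lists were chosen with earlier results of these data known. Promoter sequences are from RefSeq (GRCm38.p6). Totals of 13382623 to 22377376 reads set the precision, and floors cover counting error only.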

Additional observations from a re-analysis of the deposited data

Results flagged for a closer look

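The effect of LEV at 1 m and that at 7 d differed by a direct limma test for 482 genes. Among the genes with the largest changes at 1 m, the log2 effect at 1 m minus the effect at 7 d was -3.60 for Rny1, -1.88 for Xlr3b, -1.15 for Dsp, -1.10 for Hes5, -1.05 for Bc1 and -1.01 for Unc13c. It was -0.88 for Rps6, -0.84 for Cntnap5b, -0.76 for Srsf3, -0.68 for Meg3 and -0.64 for Zfp36l1. Larger values at 1 m were 0.92 for Crk, 1.07 for Npas4, 1.10 for Hs3st4, 1.10 for Slc25a23, 1.11 for Bloc1s2-ps, 1.16 for Gtf2a1, 1.22 for Slc17a7, 1.28 for Mt2 and 1.29 for H4c9. They were 1.38 for Rpl39-ps, 1.41 for Cnr1, 1.57 for Frmd8os, 1.80 for Rpl30-ps10, 1.84 for Rps12-ps4, 2.28 for Rmrp and 2.33 for Rpl21-ps15.

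A change in opposite directions on the sides was shown by 24 genes at a log2 of at least 1 on each. The log2 difference between PT 1 m LEV and PT 1 m on the infarcted side was 1.30 for Ace, 2.21 for Clic6, 3.08 for Cox8b, 2.45 for Ecrg4, 3.45 for F5 and 5.52 for Ttr, each with a negative value on the non-infarcted side. For these 24 genes the difference between the sides was not tested.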

How the results depend on the processing

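The 2501 calls at 1 m became 1234 without a variance trend, 3752 with the 4 libraries alone, and 376 to 1330 with 1 library left out. Other settings gave 1804 (DESeq2) to 2642. Without the libraries lowest in choroid plexus genes, an alternative chosen after seeing the data, 385 were called. The 482 genes whose effect differed between 1 m and 7 d became 232 with no filter, 4 without a trend, 25 to 325 with 1 library left out, and 6 without the libraries lowest in choroid plexus genes. The 33 genes higher by a log2 of at least 1 on both sides became 8 with a pseudocount of 5 CPM and 21 with a floor of 5 CPM on the mean. The 6 lower became 1 with a pseudocount of 5 CPM, 3 with TMM scaling and 3 with quantile scaling. The 24 with opposite signs became 6 with a pseudocount of 5 CPM and 38 with 0.5 CPM. The cause was not tested. Side as the replicate block was part of the fit: with no replicate block, 2384 genes were called at 1 m and 443 differed from 7 d. Of 165 called genes that the rule named, 0 changed sign in any alternative, 12 lost the call without the block, 12 with TMM scaling, 15 with DESeq2 (28 more had no adjusted p there) and 119 without the libraries lowest in choroid plexus genes.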
